A study of Homo sapiens with 4 samples.

Results

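The map described here is the set of EZH2 peaks on chromosomes 1 to 22 in HEK293 cells that carried an induced H3.1-K27M histone. All rows of the H3.1-K27M peak list on these chromosomes were taken, which gave 28323 of the list's 35016 peaks, and of 66093 peaks in both lists of the series. The remaining 6693 peaks lie on the sex chromosomes and are not described. HEK293 is an established human embryonic kidney line. The cells had been infected with a lentivirus, selected with G418 and induced with doxycycline, and the H3.1-WT cells of the series were handled in the same way with a wild-type histone. Nothing in the labels says whether the cells were 1 clone or which promoter drives the histone. The H3.1-K27M peaks came from 1 EZH2 library called against 1 library made with the anti-rabbit HRP secondary antibody alone, and the H3.1-WT peaks from 1 library of each kind. The titles of the H3.1-K27M libraries read H31, and their genotype label gives the mutation. With 1 library in each group no test was made, and the intervals given treat peaks as independent and cover counting error only. The list holds no read counts, so its depth is unknown.

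EZH2 is the enzyme of Polycomb repressive complex 2, which methylates lysine 27 of histone H3 and keeps developmental genes silent in cells that do not use them. The complex binds most strongly at CpG islands of such genes, and its mark can spread outward from there into broad domains. K27M replaces the target lysine with methionine, and histones with this change bind and inhibit the complex. CUT&RUN maps such binding by sending a nuclease to the antibody in permeabilised cells and sequencing the DNA that is cut free. Whether called regions are narrow or broad, isolated or bunched, is therefore a basic property of an EZH2 map.

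Most H3.1-K27M peaks were short. The median width was 810 bases, with the 10th percentile at 307 and the 90th at 2460 bases. Of the 28323 peaks, 8253 were under 500 bases wide (29.1%, 95% Wilson interval 28.6% to 29.7%), 8814 were 500 to under 1000 bases (31.1%) and 7247 were 1000 to under 2000 bases (25.6%). A further 3304 peaks measured 2000 to under 5000 bases (11.7%), 571 measured 5000 to under 10000 bases (2.02%) and 134 measured 10000 bases or more (0.473%, 0.400% to 0.560%). The narrowest peak was 255 bases, a width that 60 peaks shared, and 2491 peaks (8.79%) were under 300 bases. The widths thus end sharply at 255 bases, with many peaks spread over the widths just above it.

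Covered length was distributed differently from peak number. The peaks covered 34.6 Mb, which is 1.20% of the autosomes. Peaks under 1000 bases made up 60.3% of the list but held 27.02% of the covered length. Peaks of 2000 bases or more made up 14.2% of the list and held 44.3% of the covered length. The 705 peaks of at least 5000 bases, called wide peaks here, were 2.49% of the list (2.31% to 2.68%) and held 16.3% of the covered length.

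In the H3.1-WT list the narrow end looked alike and the wide end was thinner. Its 29018 autosomal peaks had a median width of 778 bases, and 61.9% were under 1000 bases. It held 457 peaks of 5000 to under 10000 bases (1.57%) and 63 of 10000 bases or more (0.217%, 0.170% to 0.278%). H3.1-K27M's widest peak spanned 41559 bases, and that of H3.1-WT 27533 bases. Each list rests on 1 EZH2 library of unknown depth, and these counts were set side by side without a test.

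**Figure D1:**
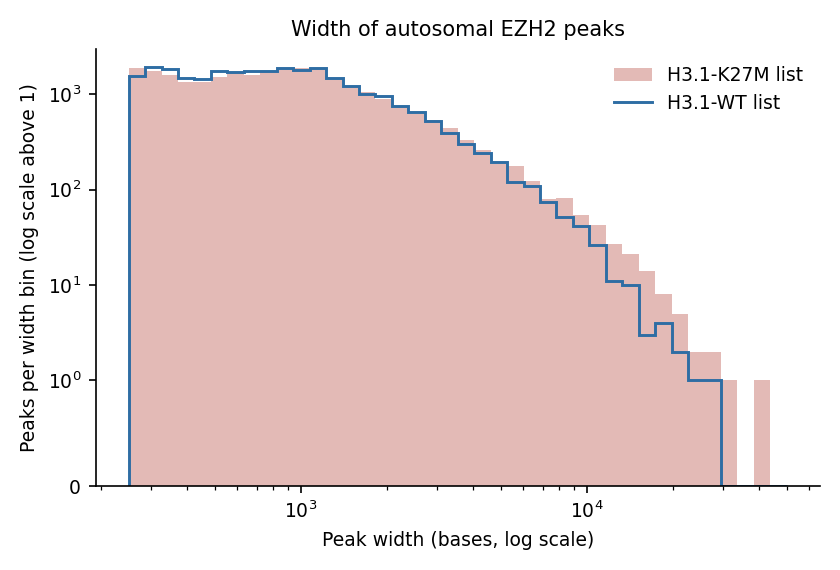
Number of autosomal EZH2 peaks (vertical axis, log scale above 1) in each bin of peak width in bases (horizontal axis, log scale), as filled red steps for H3.1-K27M and a blue line for H3.1-WT. The outlines run together at the narrow end, and H3.1-K27M has more peaks above 10000 bases, 134 against 63.

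Fold enrichment, which the authors' caller gives for each peak as signal divided by its estimated background, spanned a narrow range for most of the map. Its median was 3.36, the 10th percentile 3.07 and the 90th 4.02. In all, 89.5% of peaks lay under 4, and 113 of 28323 reached 7. The lowest −log10 q value, the caller's own measure of confidence, was 1.004, and 74.4% of peaks lay under 2. The map is thus made up largely of weak calls just above the caller's limit, and 619 peaks (2.19%) reached a −log10 q of 5 and are called strong here.

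Width and fold enrichment were related only among the wider peaks. Median fold enrichment was 3.33 for peaks under 500 bases, 3.29 at 500 to under 1000 bases and 3.37 at 1000 to under 2000 bases. It was 3.55 at 2000 to under 5000 bases, 3.91 at 5000 to under 10000 bases and 5.27 at 10000 bases or more. The classes overlap: the 10th to 90th percentile ran from 3.05 to 3.95 in the narrowest class and from 3.72 to 8.12 in the widest. Across all 28323 peaks Spearman's rho was 0.187 and Pearson's r of the log10 values 0.269. The rho was 0.0400 among the 24314 peaks under 2000 bases and 0.384 among the 4009 peaks of 2000 bases or more. These are descriptions across peaks of 1 library, which share its depth and caller and are not replicates. The rho was above 0 on every autosome, from 0.0835 on chromosome 21 to 0.256 on chromosome 17. In the H3.1-WT list the corresponding rho was 0.274 over all peaks, 0.116 under 2000 bases and 0.466 from 2000 bases.

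Read the other way, high fold enrichment went with great width. Peaks with a fold enrichment of 3 to 3.5, the largest group with 16726 members, had a median width of 768 bases, and 86 of them (0.514%) were wide. The 497 peaks from 5 to 7 had a median width of 2615 bases, and 26.8% were wide. Among the 99 peaks from 7 to 10 the median was 6666 bases, and 68.7% were wide. The 14 peaks of 10 or more had a median of 7492 bases, and 9 of them were wide.

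A few peaks had very low fold enrichment and lay by centromeres. Of the 28 peaks under a fold enrichment of 2, 25 lay within 2 Mb of a centromere band, against 4.30% of all peaks. Of the 28, 13 were strong. The lowest fold enrichment was 1.11, at hg19 chr19:27732325-27732658 in band 19q11, with a −log10 q of 5.66. Centromeric DNA consists of long satellite repeats to which reads cannot be assigned uniquely, and no filter for such regions was applied here. The part of such repeats in these values was not tested.

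**Figure D2:**
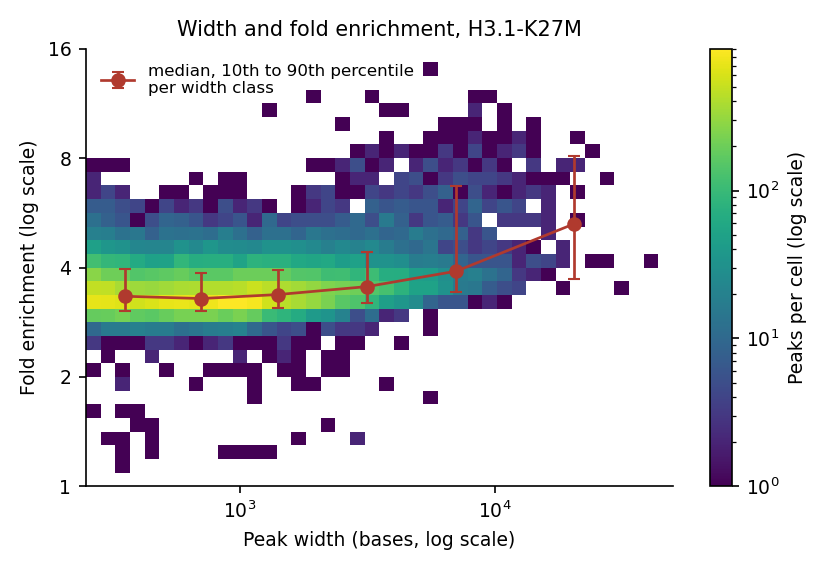
Fold enrichment (vertical axis, log scale) against peak width in bases (horizontal axis, log scale) for the 28323 autosomal H3.1-K27M peaks, with colour giving the number of peaks per cell on a log scale. Red points are the medians of the 6 width classes and red bars their 10th to 90th percentiles, with medians between 3.29 and 3.55 below 5000 bases and 5.27 from 10000 bases.

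Neighbouring peaks stood at very uneven distances. The gap from the end of a peak to the start of the next on the same chromosome had a median of 20912 bases and a mean of 97007 bases over 28301 gaps. The 25th percentile was 4947 bases and the 75th 81137 bases. The standard deviation of the gaps was 3.03 times their mean. Of the gaps, 25.1% were at most 5000 bases (24.6% to 25.7%), 36.3% at most 10000 bases and 66.6% at most 50000 bases.

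No gap was 1000 bases or shorter, and the smallest was 1021 bases. Widths and gaps are thus defined together, because the list separates regions only where at least this much unlisted sequence lies between them. The same floor was seen in the H3.1-WT list, where the smallest gap was 1045 bases.

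At the other end, 329 gaps were over 1 Mb and took up 20.2% of the autosomal length. The 2 longest, 21241522 bases on chromosome 1 and 19459718 bases on chromosome 9, spanned centromeres. The longest that did not span one was 4526040 bases, at chr4:85505325-90031364.

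The H3.1-WT peaks were spread more evenly along the autosomes. Their mean gap was nearly the same, 94995 bases, but the median gap was 43120 bases, 14.4% of gaps were at most 5000 bases and 91 gaps were over 1 Mb. The lists thus had similar numbers of autosomal peaks and similar mean gaps, while H3.1-K27M had both more short gaps and more gaps over 1 Mb. They also differed in weak calls, with 57.6% of H3.1-WT peaks under a −log10 q of 2 against 74.4% in H3.1-K27M. The part of this difference in the spacing was not tested.

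**Figure D3:**
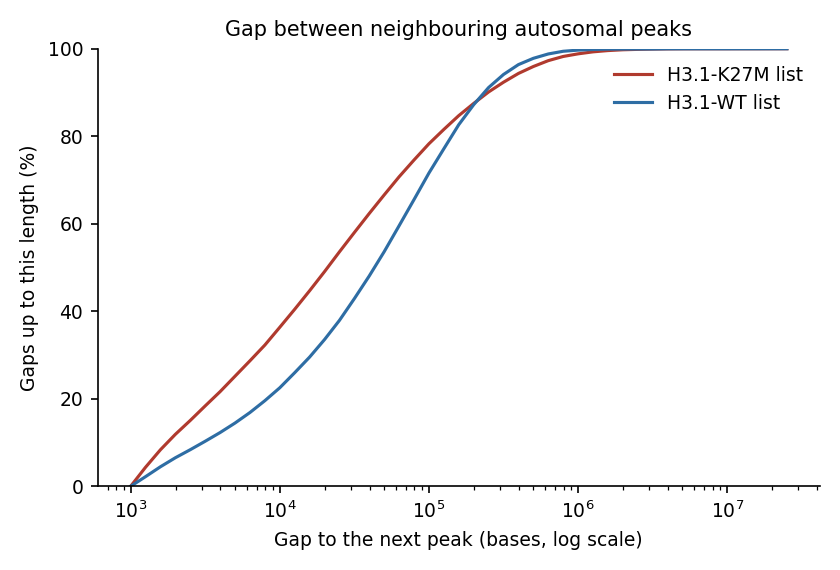
Share of gaps between neighbouring autosomal peaks (vertical axis, percent) that are no longer than the length on the horizontal axis (bases, log scale), in red for H3.1-K27M and blue for H3.1-WT. The red line lies above the blue one at short gaps, with 25.1% against 14.4% at 5000 bases, and falls below it at long gaps.

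Peaks were next joined into clusters wherever the gap was at most 5000 bases. This gave 21207 clusters. Single peaks numbered 16858, or 59.5% of all peaks (58.9% to 60.1%), and 2848 clusters held 2 peaks. Another 1501 clusters held 3 peaks or more, with 5769 peaks (20.4%, 19.9% to 20.8%) and 28.8% of the covered length. In the H3.1-WT list 672 clusters held 3 or more, with 8.03% of the peaks. The share in H3.1-K27M was 4.67% when only peaks with a −log10 q of 2 or more were kept. This step also lengthens the gaps between the peaks that remain, and it was not taken for the H3.1-WT list.

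Peaks in larger clusters were wider and hardly stronger. Median width was 715 bases for single peaks, 893 for peaks in pairs, 1036 for those in clusters of 3 to 4 and 1138 for those in clusters of 5 to 9. Median fold enrichment in the same order was 3.35, 3.37, 3.40 and 3.41. An H3.1-WT peak touched 37.8% of single peaks, by 1 base or more, against 31.4% of peaks in clusters of 3 or more. In the H3.1-WT list that share, counted against H3.1-K27M peaks, ran the other way, from 31.5% of single peaks to 52.4% of those in clusters of 3 or more.

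The width of a peak was only weakly related to that of the next one, with a rho of 0.0654 over 28301 neighbouring pairs. For fold enrichment the value was also 0.0654. Among the 7116 pairs at most 5000 bases apart the values were 0.0727 for width and 0.102 for fold enrichment. Close neighbours were thus only slightly more alike than neighbours in general.

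The largest cluster by both peaks and covered bases lay in band 6q13, at chr6:70000149-70107315. It held 16 peaks, which covered 73199 of its 107167 bases, with a highest −log10 q of 4.003 and thus no strong peak. The next by number was in 6p12.3 (chr6:50049286-50120445), with 14 peaks over 71160 bases and a median fold enrichment of 3.32. Clusters of 12 peaks included those in 11p14.3 (chr11:22343444-22410896) and 9q21.13 (chr9:77108832-77157731). The 9q21.13 cluster contained a strong peak, with a highest −log10 q of 13.8, while the 6q13, 6p12.3 and 11p14.3 clusters contained none. By covered bases the second place went to 1p36.32 (chr1:2583546-2631156), where 2 peaks filled 46316 of 47611 bases. Over the whole map 2.19% of peaks were strong, so a cluster of this size without one is not unusual. Where a strong peak lies within its cluster was not examined.

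On the scale of megabases the map was patchy. The autosomes were divided into 2897 windows of 1 Mb. Of these, 357 (12.3%) held no peak, the median window held 5 peaks and 4090 covered bases, and the fullest held 127 peaks. The windows spanned the full hg19 length, centromeres included, and those where no peak can be called were not removed. The variance of the number of peaks per window was 21.1 times its mean. The densest 1% of windows, 29 in number, held 12.8% of the covered length and the densest 10% held 54.2%. In the H3.1-WT list 200 windows were empty, the ratio of variance to mean was 6.93, and the densest 1% and 10% held 6.13% and 31.6%. Adjoining windows were alike in covered length, with a rho of 0.527 over 2875 pairs, where the H3.1-WT list had 0.456.

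The densest window lay in 9p23 (chr9:9000001-10000000), a band into which the gene of the receptor phosphatase PTPRD reaches. Here and further on, genes named beside a band are general knowledge of what that band holds, each band holds many other genes, and no peak was assigned to a gene. In this window 127 peaks covered 253607 bases, 14 of the peaks were wide, the median fold enrichment was 3.46 and the highest 4.88, and no peak was strong. The window from 65000001 on chromosome 6 was similarly dense. It lies in 6q12, the band of the photoreceptor gene EYS, and held 124 peaks over 239365 bases with a highest fold enrichment of 4.56 and no strong peak.

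Other dense windows contained a few strong peaks. Over the whole map 2.19% of peaks were strong, so counts of 3 or fewer per window do not set these windows apart. The window in 6p12.3 (chr6:50000001-51000000), the band of the AP-2 transcription factor gene TFAP2B, held 112 peaks over 247114 bases, 3 of them strong, with a highest fold enrichment of 9.09. The window from 69000001 in 6q12, which also holds the adhesion receptor gene ADGRB3, had 115 peaks over 210849 bases with 3 strong. The window in 20q13.33 (chr20:59000001-60000000), the band of the cadherin gene CDH4, had 110 peaks over 190851 bases and 1 strong peak. In 5q22.3 (chr5:113000001-114000000), the band of the potassium channel gene KCNN2, 95 peaks covered 165982 bases and the highest fold enrichment was 12.2.

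A further 3 of the 10 densest windows lay in 6q25.2, 6q16.3 and 5p14.3, with 177112, 165214 and 163432 covered bases. Over the 10 windows the median fold enrichment of a window's peaks ran from 3.29 to 3.54, around the median of the whole map. The H3.1-WT list covered 39904 to 105495 bases in the same windows, less than H3.1-K27M in each. The windows were chosen for their H3.1-K27M coverage, so this direction is in part set by the choice.

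Windows with at least 100 kb covered numbered 39 and fell on 11 chromosomes, with 17 on chromosome 6, 10 on chromosome 5 and 4 on chromosome 9. The H3.1-WT list had 1 such window. The 39 windows formed 32 separate runs, of which the longest spanned 3 Mb, in 6p12.3 (chr6:49000001-52000000, 507987 covered bases) and in 5p14 (chr5:21000001-24000000, 371758 covered bases).

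**Figure D4:**
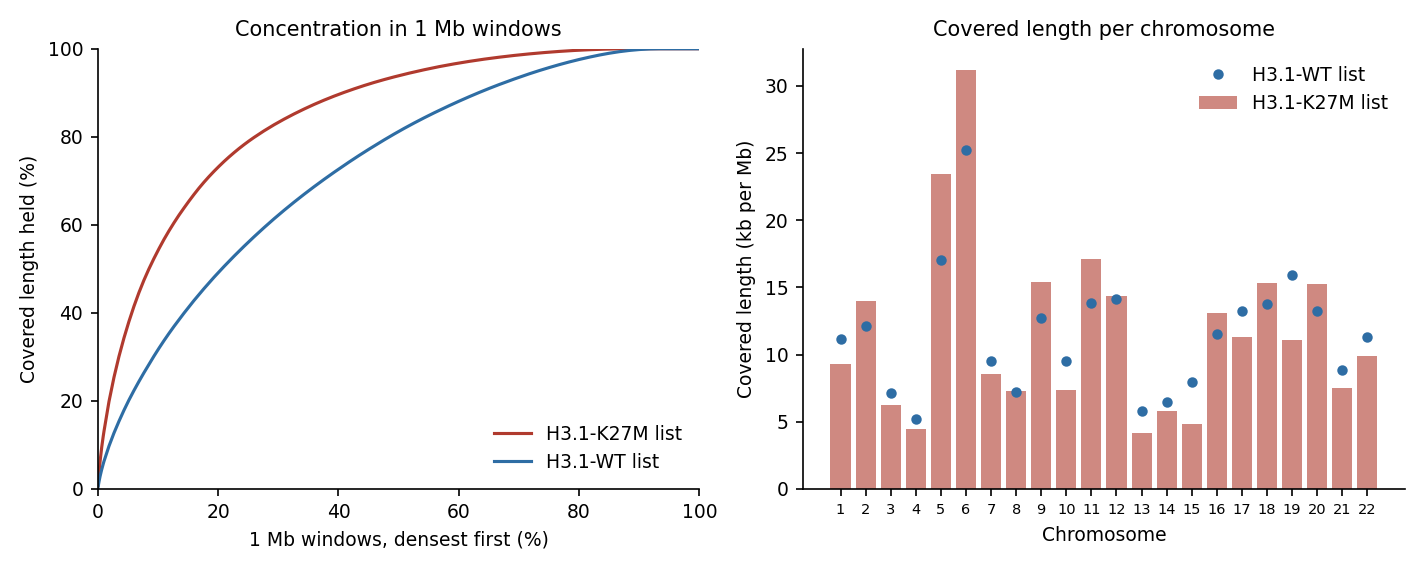
Left, share of covered length (vertical axis, percent) held by the 1 Mb windows ranked from the densest (horizontal axis, percent of windows), in red for H3.1-K27M and blue for H3.1-WT, with 54.2% and 31.6% in the densest 10%. Right, covered length in kb per Mb (vertical axis) for each autosome, as red bars for H3.1-K27M and blue points for H3.1-WT, highest on chromosome 6 and then chromosome 5 in both lists.

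Chromosomes differed several-fold in the density of the map. Chromosome 6 had 22.3 peaks per Mb and chromosome 13 had 3.69, with a median of 8.69 over the autosomes. Densities use the full hg19 length, were not corrected for unsequenced stretches, and are thus least certain for the order of the lowest chromosomes. Chromosomes 5 and 6 together hold 12.2% of the autosomal length and held 25.5% of the peaks and 27.7% of the covered length. Chromosome 6 also had the most wide peaks, 138, or 8.06 per 10 Mb against 0.680 on chromosome 4. Its median gap was the shortest, at 10220 bases, and its median fold enrichment the lowest, at 3.29. Strong peaks followed a partly different order. They were densest on chromosome 19, with 5.07 per 10 Mb, against a median of 2.21 over the autosomes. Chromosome 6 had 3.04, above that median, and chromosome 13 was again the lowest, with 0.608. Copies of each chromosome in these cells were not measured here, and their part in these densities was not tested.

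By chromosome band, the order of strong peaks also differed from that of all peaks. Light Giemsa bands, which are rich in genes, held 7.65 peaks per Mb, and the darkest bands, which are gene-poor, held 17.8. Wide peaks numbered 1.85 per 10 Mb in light bands and 4.79 in the darkest. Strong peaks were in the other order, with 2.51 per 10 Mb in light bands and 1.69 in the darkest, and were densest in the palest of the dark bands, at 3.40. Peaks with a fold enrichment of 7 or more numbered 5.32 per 100 Mb in light bands (65 peaks) and 3.69 in the darkest (17 peaks). The other dark bands, from the palest on, had 3.35, 3.64 and 2.07, so the darkest were not the lowest. Near chromosome ends, within 2 Mb, 42 of 573 peaks were strong (7.33%), against 2.02% of peaks away from both ends and centromeres.

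By medians, wide peaks of low fold enrichment had denser surroundings than those of high fold enrichment, with exceptions among single peaks. Of the 705 wide peaks, 338 had a fold enrichment under 4, 157 from 4 to 5, 133 from 5 to 7 and 77 of 7 or more. Local density was taken as the length covered by other peaks within 500 kb on each side. Its median was 72.2 kb per Mb around wide peaks of fold enrichment under 4, with quartiles of 45.7 and 125. It was 46.3 kb per Mb from 4 to 5, 24.6 from 5 to 7 and 17.9 from 7 upward, where the quartiles were 8.69 and 44.8. The quartile ranges of the first and last group did not overlap. Among the 703 wide peaks with another peak in reach the rho of fold enrichment with local density was −0.429. Chromosomes 5 and 6 held 130 of the 338 wide peaks under 4 (38.5%) and 9 of the 77 of 7 or more (11.7%). The rho was −0.407 without these 2 chromosomes. It was −0.0660 among the 212 strong wide peaks with another peak in reach. This selection also acts on fold enrichment, since fold enrichment and −log10 q had a rho of 0.919 across all peaks. Its part in the change of the rho was not tested. Both alternatives were chosen after seeing the data.

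Narrower peaks of higher fold enrichment also had sparser surroundings, by medians. For peaks under 1000 bases the median local density was 23.5 kb per Mb under a fold enrichment of 4 and 10.9 from 5 upward. At 1000 to under 5000 bases the values were 37.2 and 11.5, and for wide peaks on the same division 72.2 and 23.03. Across all peaks under 2000 bases the rho of fold enrichment with local density was only −0.0470. The fold enrichment of a wide peak is a single value for its whole width, so a strong centre inside a weak domain cannot be seen in it.

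Most wide peaks of every fold class touched an H3.1-WT peak, but the share of their length that was covered differed. An overlap of 1 base or more was found for 262 of 338 wide peaks of fold enrichment under 4 (77.5%), 153 of 157 from 4 to 5 (97.5%) and all 210 from 5 upward. Of all peaks in the map 35.3% were touched. This share rose with width, from 23.9% under 500 bases to 98.5% from 10000 bases. At least 50% of the peak was covered by H3.1-WT peaks in 59 of 338 wide peaks of fold enrichment under 4 (17.5%, 13.8% to 21.9%) and in 95 of 157 from 4 to 5 (60.5%). It was covered to that extent in 125 of 133 from 5 to 7 (94.0%) and in all 77 of 7 or more (interval 95.2% to 100%). Narrow peaks followed the same order. For peaks below 1000 bases the share was 19.4% under a fold enrichment of 4 and 83.5% from 5 upward. Fold enrichment, more than width, thus went with coverage by the other list, and since both lists come from the same cell line and caller this is a description of the lists.

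The H3.1-WT list held another mix of wide peaks. Of its 520 wide peaks, 63 had a fold enrichment under 4 (12.1%) and 268 had 7 or more (51.5%), against 47.9% and 10.9% in H3.1-K27M. Wide peaks had a median fold enrichment of 7.08 in the former list and 4.05 in the latter. Fold enrichment depends on depth and scaling, which are unknown, so the 2 mixes cannot be read as amounts of bound EZH2.

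**Figure D5:**
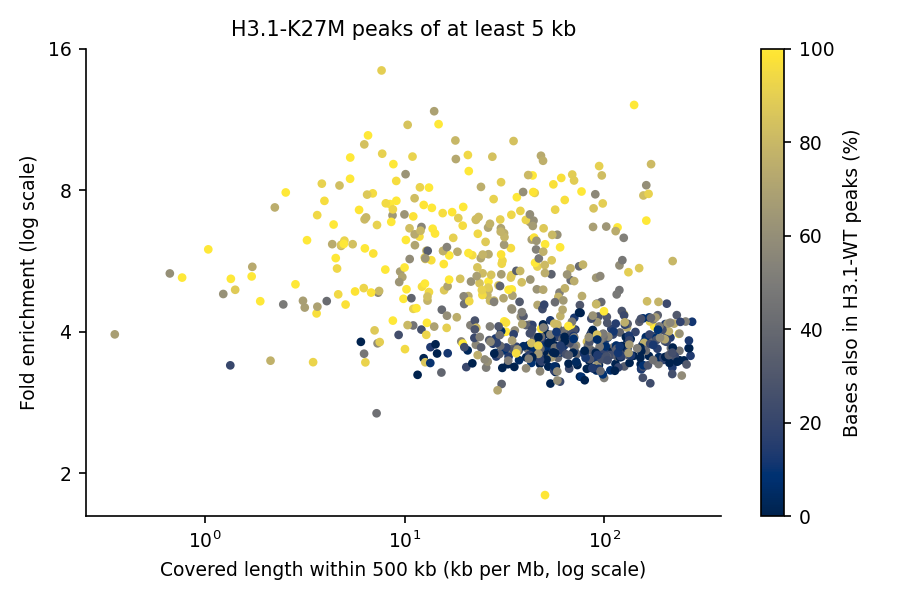
Fold enrichment (vertical axis, log scale) against covered length within 500 kb (horizontal axis, kb per Mb, log scale) for 703 autosomal H3.1-K27M peaks of at least 5 kb, coloured by the percent of their bases that are also in H3.1-WT peaks. Dark points with little H3.1-WT coverage gather at the lower right, at a fold enrichment under 4 and high local density, and light points lie above and to the left.

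The 10 widest peaks differed in fold enrichment, surroundings and H3.1-WT coverage. The widest, at chr1:2589598-2631156 in 1p36.32, spanned 41559 bases with a fold enrichment of 4.31 and a −log10 q of 10.3. The second, at chr19:8852007-8883454 in 19p13.2, spanned 31448 bases at a fold enrichment of 3.57. Local density was 38.1 kb per Mb around the widest and 23.2 around the second. H3.1-WT peaks covered 59.7% of the widest and 75.4% of the second. In 6q12, peaks at chr6:63542118-63568228 and chr6:65306236-65328967 spanned 26111 and 22732 bases at fold enrichments of 4.36 and 4.16. Around them local density was 125 and 202 kb per Mb, the highest values among the 10. The H3.1-WT list covered 83.3% of the former and 14.4% of the latter. The former peak lay 242 kb from a centromere band. Of the 134 peaks of 10000 bases or more, 16 lay within 2 Mb of such a band, against 1217 of all 28323 peaks (4.30%). The part of centromeric repeats in these widths was not tested.

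Others, outside centromere bands, combined great width with a fold enrichment above 7. The third widest, at chr18:44766017-44792228 in 18q21.1, the band of the neuronal corepressor gene SKOR2, spanned 26212 bases at a fold enrichment of 7.27 and a local density of 5.91 kb per Mb. The peak at chr12:113899748-113924393 in 12q24.13, the band of the LIM homeobox gene LHX5, spanned 24646 bases at 8.12. The peak at chr18:891978-914253 in 18p11.32, the band of the neuropeptide gene ADCYAP1, spanned 22276 bases at 9.32. In 5p15.1 a peak at chr5:16165424-16185968 spanned 20545 bases at 7.85. Its surroundings were dense, at 90.1 kb per Mb, above the median around wide peaks of fold enrichment under 4, and H3.1-WT peaks covered 56.4% of it.

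The eighth in width lay in the centromere band 2p11.1 at chr2:91657698-91679171, with 21474 bases, a fold enrichment of 7.63 and a −log10 q of 21.6. H3.1-WT peaks covered 96.7% of it.

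The wide peaks of highest fold enrichment were narrower than these. The highest of the whole map, 14.4, belonged to a peak of 5667 bases at chr11:69630279-69635945 in 11q13.3, the band of the fibroblast growth factor gene FGF3. Next among wide peaks came chr5:113694002-113703844 in 5q22.3, with 9843 bases at 12.2. The others were chr10:106395278-106404195 in 10q25.1, the band of the sorting receptor gene SORCS3, with 8918 bases at 11.8, and chr11:2158601-2166626 in 11p15.5, the band of the imprinted growth factor gene IGF2, with 8026 bases at 11.1. The fifth was chr1:152078579-152089440 in 1q21.3, with 10862 bases at 11.02. H3.1-WT peaks covered from 69.2% to 100% of these 5.

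Of the 5 peaks of highest fold enrichment in the whole map, 2 were not wide. They lay at chr4:1421233-1423073 in 4p16.3, with 1841 bases at 12.2, and at chr1:205423753-205426854 in 1q32.1, with 3102 bases at 11.4. The highest −log10 q of the map, 136, belonged to a peak of 2420 bases at chr20:47130537-47132956 in 20q13.13, whose fold enrichment was 9.59. The highest confidence and the greatest width were thus found at different loci.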

How the data were processed

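EZH2 was profiled by CUT&RUN in 4 libraries, 1 per genotype and antibody, grouped by title, with the titles' H31 read through the genotype label. Per the submitters' processing notes, the build was hg19, and the tools named are MACS2, deepTools, Picard, cutadapt and Bowtie2 2.3.5.1, with neither roles nor settings. Fold enrichment was deposited as a linear ratio, and −log10 p and −log10 q values were deposited by the authors as their caller gave them. Library scaling was not given in the sources used here. All are the authors' values and were used to describe and rank peaks. MACS2's documentation describes these values of a broad peak as means over its width.

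Positions are printed 1-based in hg19. No peak overlapped another or passed a chromosome end. Width was column 3 minus column 2. Clusters joined gaps of at most 5000 bases. Windows of 1 Mb used clipped bases, and peaks were counted by midpoint. Local density left out the peak itself. Bands came from circlize 0.4.16 and lengths from GenomeInfoDb 1.38.1. A peak has the band of its midpoint. Shares have Wilson intervals of 95%, which treat peaks as independent. Functions were tested on simulated lists of 5680 peaks with 0 disagreements, bedtools 2.31.1 included. Python 3.11.15, pandas 2.3.3, scipy 1.17.1 and R 4.3.3 were used.

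The named loci were the 10 widest peaks, the 10 densest windows, the 5 clusters with most peaks and most covered bases, and the 5 peaks of highest fold enrichment, over all peaks and among wide ones, and a few of these are not reported here. The peak of highest −log10 q, the longest gaps and the runs of dense windows were named after their values were seen. Members, classes and rules were chosen with earlier results of these data known. Genes beside bands are general knowledge, and for 12 of 12 symbols the chromosome was the same in the RefSeq table of GRCh38.p14. No hg19 genome or annotation was used here, so sequences and gene lists were not analysed here.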

Additional observations from a re-analysis of the deposited data

How the results depend on the processing

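Of 48 alternatives over 8 results, 28 kept the value within its Wilson interval, within 0.1 for a rho or within 1.5 times otherwise, 19 moved it and 1 reversed it. The share of wide peaks, 2.49%, was 7.82% with a minimum −log10 q of 2 and 34.4% with one of 5. The rho of width with fold enrichment, 0.187, was 0.0962 at 2 and 0.383 at 5. The median gap, 20912 bases, was 115925 bases at 2 and 2258239 bases at 5. The share of peaks in clusters of 3 or more, 20.4%, was 4.67% at 2, 0.808% at 5, 23.3% with chromosome X and 18.7% without chromosome 6. It was 0%, 34.3% and 49.3% with joining distances of 1000, 10000 and 20000 bases, the first by construction, since no gap is that short. The share of covered length in the densest 1% of windows, 12.8%, was 23.02% at 5. Fewer peaks at a higher minimum lengthen gaps by construction, and the cause of the other changes was not tested.

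The share of wide peaks overlapped by H3.1-WT peaks, 88.7% by 1 base, was 50.5% when 50% of the peak had to be covered. With a minimum −log10 q in both lists it was 75.3% at 2 and 96.2% at 5. Over all peaks of the map the share overlapped by 1 base was 35.3%. The rho of fold enrichment with local density among wide peaks, −0.429, reversed to 0.0286 over 76 peaks when both the wide peaks and their surroundings were limited to strong peaks. It was −0.0660 over 212 strong wide peaks with all peaks counted around them, and lay between −0.450 and −0.364 under the other 6 alternatives. The share of wide peaks of fold enrichment under 4 covered to 50% by H3.1-WT peaks, 17.5%, was 22.1% without chromosomes 5 and 6 and 13.2% without peaks near centromeres and chromosome ends. Gene lists and their alternatives could not be run without an hg19 annotation. Alternatives without a chromosome pair, with a shorter flank or limited to strong wide peaks, and those of the wide peaks of fold enrichment under 4, were chosen after seeing the data. No paired analysis was possible because there is a single library for each antibody and genotype. The depth is unknown and limits every count.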
